A study of Rattus norvegicus with 28 samples.

Results

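A set of 9 genes whose transcripts mark the subfields of the hippocampus were followed in whole rat hippocampus. Prox1, Dsp, Tdo2 and Calb1 stood for the granule cells of the dentate gyrus, Wfs1 for CA1, and Pcp4 and Amigo2 for CA2. Neurod6 stood for the pyramidal cells of the CA fields, and Calb2 for interneurons and, in some rodent species, mossy cells. They were chosen by name as anatomical markers, and each was found on the array by the accession that the scanner files give its probe. Of the 9 genes, 8 had a probe (9 probes, Amigo2 having 2), out of 15631 named genes on the array. Accessions that matched Dsp were not found. Prox1 and Tdo2 were not well above background on any of the 14 arrays, and the other 6 genes (7 probes) were above background on all 14 arrays.

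All rats were adult male Sprague-Dawley rats of 350 to 400 g (age not given), and the hippocampus was taken 24 h after the injury or sham procedure. The 5 groups were Sham rats (n = 2), rats with severe parasagittal fluid-percussion traumatic brain injury (TBI, n = 3), and injured rats given imipramine, Prozac (fluoxetine) or Zoloft (sertraline) 1 h after injury (TBI+Imipramine, TBI+Prozac and TBI+Zoloft, n = 3 each). Per the study's methods the drugs were each given once, at the same dose by intraperitoneal injection, and the remaining rats received vehicle. No drug was given to Sham rats, so each drug was seen in injured tissue alone. The RNA came from the whole hippocampus, so that fewer cells of a type and less RNA per cell cannot be told apart in any value below.

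The hippocampus is a chain of fields. Granule cells of the dentate gyrus project to CA3, CA3 pyramidal cells project to CA1, and CA2 lies between them; mossy cells and interneurons of the hilus feed back on the granule cells. Each field expresses genes that the others lack or hold at low levels, and hilar neurons and CA3 pyramidal cells are known as vulnerable to fluid-percussion injury. Marker levels in whole tissue therefore follow the make-up of the sample as well as the regulation of each gene.

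Per array, 14676 to 18196 of 30367 probes were above background, and arrays of the same group correlated at 0.97 to 0.99 across probes. Each log2 value below is the signal of a probe over the 75th percentile that its array reached among detected probes. The arrays lay on 3 slides. Both Sham arrays had a slide of their own, so slide and injury cannot be told apart in comparisons with Sham. The 3 TBI arrays shared a slide with TBI+Prozac replicate 1, and the other 8 drug arrays shared the remaining slide. Slide and drug therefore go together in TBI+Imipramine and TBI+Zoloft against TBI, these slides being linked by TBI+Prozac replicate 1 alone. The summed level of choroid plexus markers (3 of 8 kept: Ttr, Folr1 and Aqp1), given here as their mean log2 value, ran from -4.83 to 2.03 over the 14 arrays, and each of the 5 groups held arrays more than 3 log2 units apart. Its part in the values below was not tested.

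After injury alone, no member passed the test. In TBI against Sham, 0 of the 6 measured members passed an adjusted p of 0.05 in limma, where 16.6% of all 17322 kept probes passed. Of the members 0 had an unadjusted p under 0.05, as did 5335 of all kept probes. The members' differences ran from -0.20 for Neurod6 to 0.31 for Pcp4, with a median of 0.061 beside 0.0015 for all kept probes. Neurod6 was lower in TBI+Zoloft than in the other drug groups and Sham, and it was the single member called in any of the 10 comparisons. Before adjustment Amigo2 also passed 0.05 in limma in TBI+Imipramine and TBI+Prozac against TBI+Zoloft, as did Wfs1 in the latter comparison. In these comparisons 4096 and 3640 of all 17322 kept probes did so too.

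**Figure D1:**
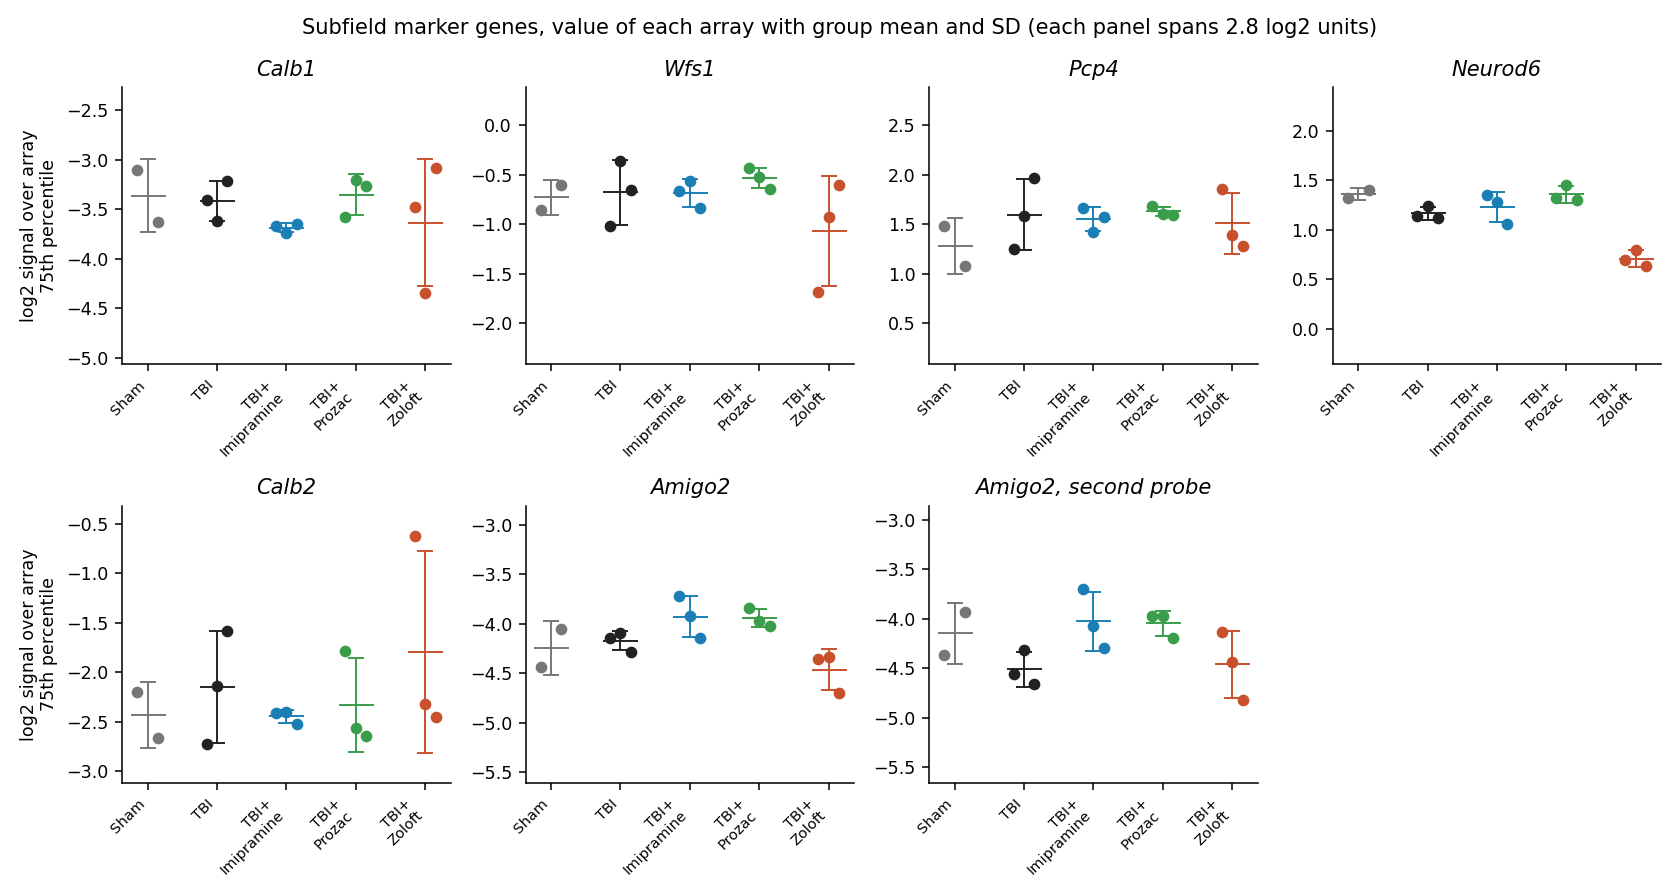
Each panel plots 1 probe of a subfield marker gene, with the log2 signal over the array's 75th percentile on the y axis and the 5 groups on the x axis; points are arrays, dashes are group means and bars are SD. In the Neurod6 panel the 3 TBI+Zoloft arrays lie between 0.63 and 0.80, below the other 11 arrays, and in the Calb2 panel TBI+Zoloft replicate 1 stands apart at -0.62.

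Dentate gyrus. Prox1, the transcription factor that specifies and maintains granule cell identity, gave log2 values between -8.73 and -7.46 on a probe with 2 spots. Tdo2, the tryptophan dioxygenase gene whose transcript is found in mature granule cells, gave values between -8.84 and -7.73 on a probe with 10 spots. On every array both lay under the lowest signal well above background, which ranged from -6.86 to -5.69, and no fold is given for either. Calb1 encodes calbindin, a calcium buffer of granule cells that is also found in CA1 pyramidal cells and in interneurons. Calb1 measured -3.10 and -3.63 in the Sham arrays, -3.41, -3.62 and -3.22 in TBI, -3.67, -3.74 and -3.65 in TBI+Imipramine, -3.58, -3.21 and -3.27 in TBI+Prozac, and -3.48, -4.35 and -3.09 in TBI+Zoloft. The TBI+Imipramine arrays lay below all Sham, TBI and TBI+Prozac arrays, and the TBI+Zoloft arrays spanned the lowest and the highest value of the 14. Calb1 differed by -0.05 ± 0.30 (SE) between TBI and Sham, with a 95% interval from -0.70 to 0.59. Against TBI it differed by -0.27 ± 0.26 in TBI+Imipramine (adjusted p = 0.58), where the median probe stood 0.20 higher. Calb1 passed the threshold in none of the 10 comparisons.

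CA1. Wfs1 encodes wolframin, a membrane protein of the endoplasmic reticulum that is abundant in dorsal CA1 pyramidal cells. Wfs1 measured -0.85 and -0.61 in Sham, -1.02, -0.36 and -0.65 in TBI, -0.67, -0.56 and -0.83 in TBI+Imipramine, -0.43, -0.52 and -0.64 in TBI+Prozac, and -1.68, -0.92 and -0.60 in TBI+Zoloft. All groups overlapped, and TBI+Zoloft replicate 1 was the lowest array. The difference between TBI and Sham was 0.05 ± 0.27 (95% interval -0.54 to 0.64). Wfs1 was 0.54 ± 0.24 higher in TBI+Prozac than in TBI+Zoloft, which did not pass limma's adjusted test (adjusted p = 0.23). Without TBI+Zoloft replicate 1 that difference was 0.23 (adjusted p = 0.52).

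CA2. Pcp4 encodes a small calmodulin-binding protein that marks CA2 and is also present in granule cells. Pcp4 measured 1.49 and 1.08 in Sham, 1.25, 1.58 and 1.97 in TBI, 1.67, 1.43 and 1.57 in TBI+Imipramine, 1.69, 1.61 and 1.60 in TBI+Prozac, and 1.86, 1.39 and 1.28 in TBI+Zoloft. The Sham mean was the lowest of the 5 group means and the TBI+Prozac arrays lay above both Sham arrays, while the other groups overlapped Sham. Pcp4 differed from Sham by 0.31 ± 0.22 in TBI (adjusted p = 0.37; 95% interval -0.17 to 0.80) and by 0.35 ± 0.22 in TBI+Prozac (adjusted p = 0.32).

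Amigo2 encodes a leucine-rich repeat adhesion molecule enriched in CA2 and CA3a pyramidal cells. Its brighter probe measured -4.44 and -4.05 in Sham, -4.14, -4.10 and -4.28 in TBI, -3.72, -3.92 and -4.14 in TBI+Imipramine, -3.84, -3.97 and -4.02 in TBI+Prozac, and -4.36, -4.33 and -4.70 in TBI+Zoloft. The 3 TBI+Zoloft arrays lay below all TBI, TBI+Imipramine and TBI+Prozac arrays, and overlapped Sham. Amigo2 was 0.54 ± 0.15 higher in TBI+Imipramine and 0.52 ± 0.15 higher in TBI+Prozac than in TBI+Zoloft, differences that missed the threshold (adjusted p = 0.061 and 0.082). The difference between TBI+Imipramine and TBI+Zoloft was called in limma when probes were restricted to those above background on all arrays (adjusted p = 0.048), and it was 0.28 under quantile normalization and 0.22 after normexp. The dimmer probe of Amigo2, with 1 spot, followed the brighter one across the 14 arrays (Pearson r = 0.82). On the dimmer probe the TBI+Zoloft arrays overlapped every other group, and TBI had the lowest mean. The dimmer probe was 0.44 ± 0.20 higher in TBI+Imipramine and 0.41 ± 0.20 higher in TBI+Prozac than in TBI+Zoloft, and neither passed limma's test (adjusted p = 0.22 and 0.27). It was opposite in sign in TBI against Sham, at -0.36 ± 0.23 against 0.07 ± 0.17, and in TBI+Zoloft against TBI, at 0.05 ± 0.20 against -0.29 ± 0.15, with neither probe past the threshold in either comparison.

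Pyramidal cells. Neurod6 (also known as NEX) encodes a basic helix-loop-helix transcription factor of glutamatergic pyramidal neurons, and in the hippocampus it marks the CA fields and is low in mature granule cells. Neurod6 measured 1.32 and 1.41 in Sham, 1.14, 1.24 and 1.12 in TBI, 1.35, 1.28 and 1.06 in TBI+Imipramine, 1.32, 1.46 and 1.30 in TBI+Prozac, and 0.69, 0.80 and 0.63 in TBI+Zoloft. The TBI+Zoloft arrays lay below the remaining 11 arrays, and the TBI arrays lay below both Sham and all TBI+Prozac arrays. The mean was 0.71 ± 0.09 (SD, n = 3) in TBI+Zoloft, 1.17 ± 0.06 (n = 3) in TBI, 1.23 ± 0.15 (n = 3) in TBI+Imipramine, 1.36 ± 0.08 (n = 3) in TBI+Prozac and 1.36 ± 0.06 (n = 2) in Sham. In the order of these means, no pair of neighbours above TBI+Zoloft passed the test, and the step from TBI+Zoloft to TBI was 0.46 ± 0.11 with an adjusted p of 0.069.

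Neurod6 fell by 0.65 ± 0.13 on the log2 scale in TBI+Zoloft against Sham (adjusted p = 0.012), or to 0.64 of the Sham level, in a comparison that called 5.95% of all kept probes. Of those 1031 probes 720 were higher in TBI+Zoloft, and with the 75th percentile taken over all probes 1185 of 2118 were. It was 0.65 ± 0.11 higher in TBI+Prozac than in TBI+Zoloft (adjusted p = 0.018; 3.69% of all kept probes called) and 0.52 ± 0.11 higher in TBI+Imipramine than in TBI+Zoloft (adjusted p = 0.028; 5.29% called). In these last comparisons most called probes went the same way as Neurod6, 625 of 639 being higher in TBI+Prozac and 910 of 917 higher in TBI+Imipramine. The median of all kept probes stood 0.11 and 0.18 higher in those groups, so that relative to the median probe Neurod6 was 0.54 higher in TBI+Prozac and 0.34 higher in TBI+Imipramine. With the 75th percentile taken over all probes, 238 of 331 calls were higher in TBI+Prozac and 68 of 78 in TBI+Imipramine. Any difference among the 3 drugs in Neurod6 passed limma's F test (adjusted p = 0.023). No other measured member passed it, the lowest adjusted p being 0.085 for Amigo2. The F test is built from the contrasts of TBI+Imipramine and TBI+Prozac with TBI+Zoloft just given, so it is no separate evidence. The share of all kept probes past it is not given here.

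Against untreated injury the drop in TBI+Zoloft, 0.46 ± 0.11, just missed the threshold (adjusted p = 0.069; unadjusted p = 0.0016), where 1.38% of all kept probes passed. Those were 239 probes, 201 of them higher in TBI+Zoloft, and with the 75th percentile taken over all probes they were 824, with 517 higher. Neurod6 differed from TBI by 0.07 ± 0.11 in TBI+Imipramine (adjusted p = 0.77; 2.85% of kept probes called) and by 0.19 ± 0.11 in TBI+Prozac (adjusted p = 0.59; 0.00577% called). Its 95% interval in TBI against Sham was -0.47 to 0.08. The comparisons of 2 groups share arrays where they share a group, and those with TBI+Zoloft all rest on the same 3 arrays.

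The Neurod6 calls depended on single arrays and on the setting, while the sign of its differences from TBI+Zoloft did not. Without Sham replicate 1 or Sham replicate 2, the difference between TBI+Zoloft and Sham was -0.70 and -0.61, with adjusted p = 0.071 and 0.093. On the slide that held the 8 drug arrays alone, the differences from TBI+Zoloft were 0.52 for TBI+Imipramine and 0.67 for TBI+Prozac, with adjusted p = 0.066 and 0.12. With the 75th percentile over all probes they were 0.32 and 0.50 (adjusted p = 0.15 and 0.053), while TBI+Zoloft then passed the threshold against TBI, at -0.47. The difference from TBI+Imipramine was also no longer called without TBI+Imipramine replicate 1 or 2 or without TBI+Zoloft replicate 2 or 3 (0.46 to 0.57), and that from TBI+Prozac without any 1 of the TBI+Prozac arrays or without TBI+Zoloft replicate 2 (0.60 to 0.70). The 75th percentile itself was 1323 to 1475 intensity units on the TBI+Zoloft arrays, 1302 and 1404 on the Sham arrays and 1465 to 2228 on the other injured arrays; its part in the result was not tested.

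**Figure D2:**
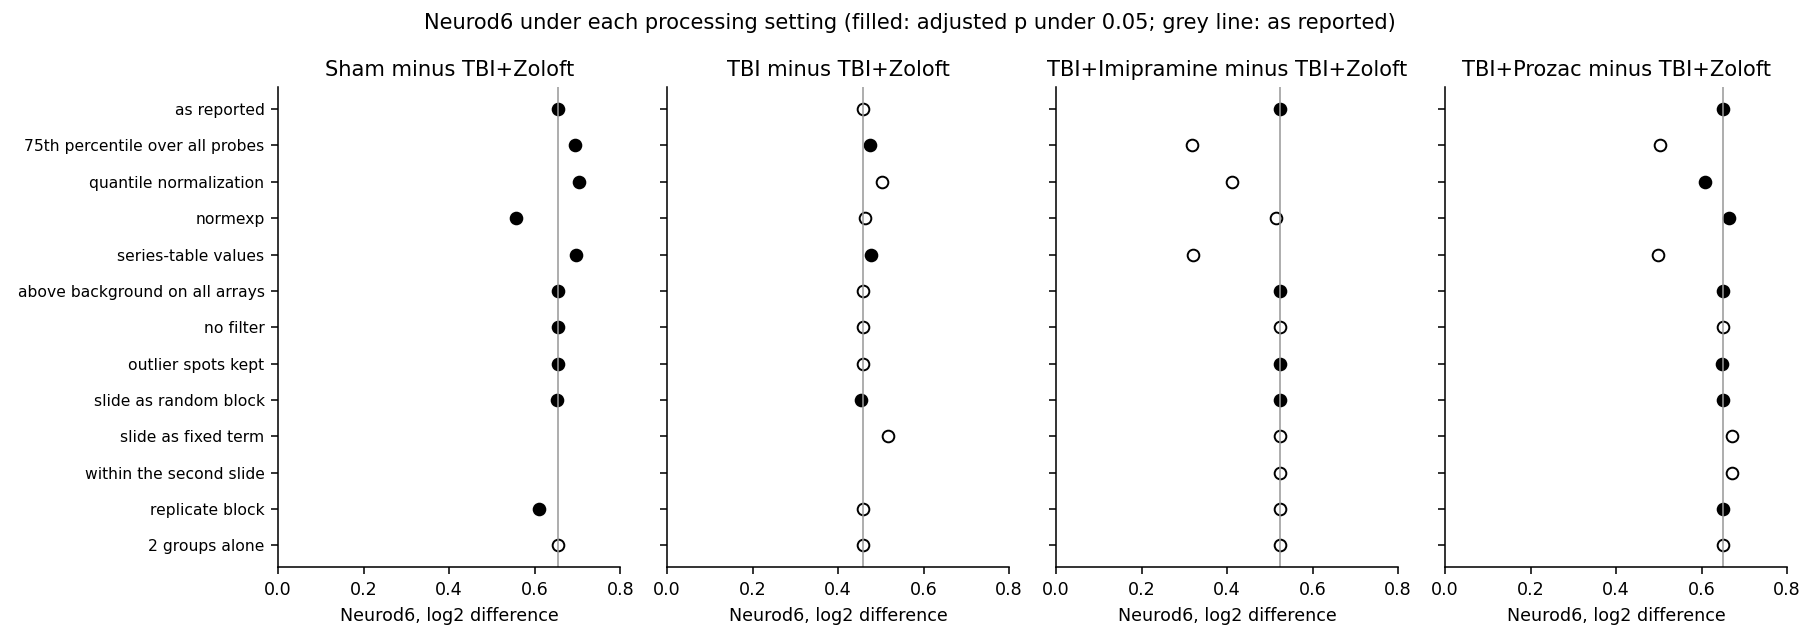
Each panel gives the log2 difference of Neurod6 between a group and TBI+Zoloft (x axis) under each processing setting (y axis); filled points passed an adjusted p of 0.05, open points did not, and the grey line is the reported value. The sign was the same under every setting drawn, and TBI+Zoloft minus TBI was called in 3 of the alternatives.

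The gene lies on rat chromosome 4, and its 250 bases upstream of the RefSeq start are printed because Neurod6 is the member that moved (GRCr8, chr4:86180156-86180405, minus strand). Capitals mark TGACGTCA, the palindromic cyclic AMP response element, which reads alike on both strands.

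Neurod6 upstream: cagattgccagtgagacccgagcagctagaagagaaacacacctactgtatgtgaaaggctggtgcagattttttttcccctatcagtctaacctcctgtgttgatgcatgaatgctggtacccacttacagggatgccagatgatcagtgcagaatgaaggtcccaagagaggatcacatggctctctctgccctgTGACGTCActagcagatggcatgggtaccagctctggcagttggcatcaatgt

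The motif begins 53 bases before the start. Upstream windows of the same length held it in 1.59% of 33469 rat genes in the RefSeq table. That table had 6 of the 9 members, and the other 5 of these (Dsp, Tdo2, Wfs1, Pcp4 and Amigo2) lacked TGACGTCA in this window. The E-box letters CANNTG, the class of motif that NeuroD-type factors bind, matched 4 times in the Neurod6 window. The median over all windows was 1 match, and 65.5% held at least 1. The share of windows with 4 or more is not given here. Dsp, Wfs1 and Pcp4 had 1 match each, and Tdo2 and Amigo2 had 0. No binding was measured here, and a match is a string of letters.

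Among 11867 other probes with a symbol, the 2 whose log2 values were most like Neurod6 across the 14 arrays were those of Gabra5, a subunit gene of the GABA-A receptor (Pearson r = 0.94), and Ppp3ca, the catalytic subunit of calcineurin (r = 0.93). Gabra5 had a mean of -2.24 in TBI+Zoloft, -1.89 in TBI, -1.82 in TBI+Imipramine, -1.60 in TBI+Prozac and -1.62 in Sham, and its highest TBI+Zoloft array, at -2.22, lay below the other 11 arrays. Ppp3ca ranged from 1.12 to 1.22 in TBI+Zoloft and from 1.42 to 2.19 in the others. These correlations describe 14 arrays in which TBI+Zoloft stands low for all 3 genes, and they share each array's scaling.

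**Figure D3:**
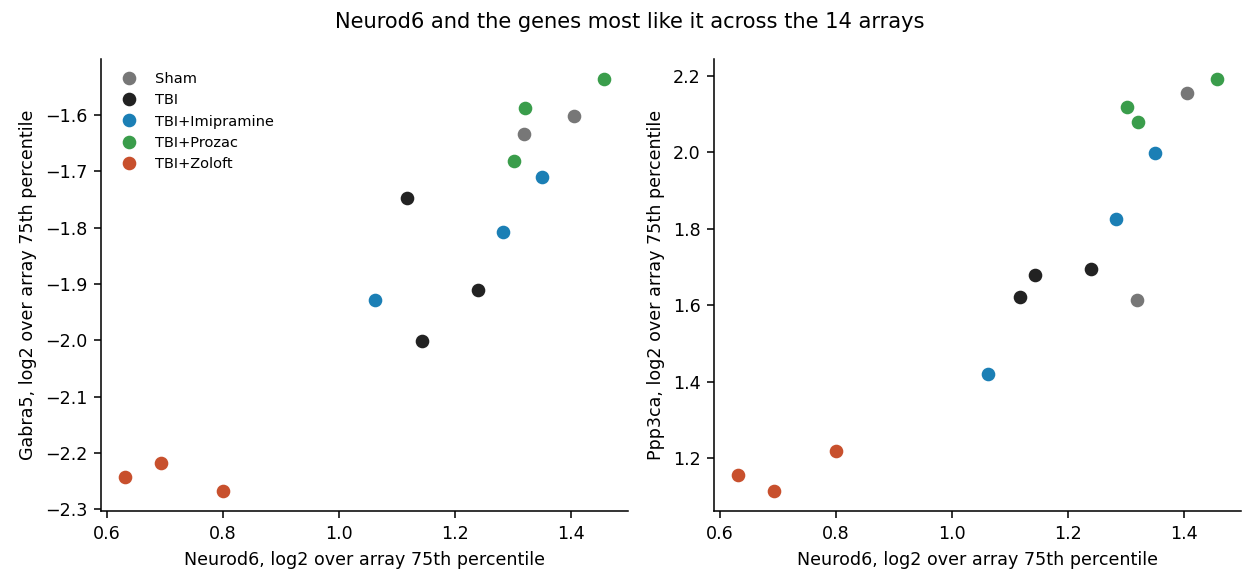
Log2 values of Gabra5 (left) and Ppp3ca (right) on the y axes against Neurod6 on the x axis, with 1 point per array coloured by group. The 3 TBI+Zoloft arrays form the lower left of both panels.

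Interneurons and mossy cells. Calb2 encodes calretinin, a calcium-binding protein of an interneuron class, of immature granule neurons and, in some rodent species, of hilar mossy cells. Which cells carried it in these rats was not tested. Calb2 measured -2.20 and -2.67 in Sham, -2.72, -2.14 and -1.59 in TBI, -2.41, -2.40 and -2.52 in TBI+Imipramine, -1.78, -2.56 and -2.65 in TBI+Prozac, and -0.62, -2.33 and -2.45 in TBI+Zoloft. All groups overlapped, and TBI+Zoloft replicate 1 lay 0.97 above the next highest array. Calb2 differed by 0.28 ± 0.49 between TBI and Sham (95% interval -0.77 to 1.34) and by 0.35 ± 0.43 between TBI+Zoloft and TBI. The latter became -0.24 without TBI+Zoloft replicate 1, and neither value passed the threshold. That array was the highest of 14 for Calb2 and the lowest for Wfs1, while its Neurod6 value of 0.69 lay between those of the other TBI+Zoloft arrays.

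The members differed in how much they varied within groups. The SD within groups was 0.10 for Neurod6, 0.18 for Amigo2, 0.25 for Pcp4, 0.32 for Wfs1, 0.36 for Calb1 and 0.61 for Calb2 on the log2 scale, beside a median of 0.22 over all kept probes. Of all kept probes, 1.5% had a smaller SD than Neurod6 and 94.3% a smaller SD than Calb2. Between groups of 3 arrays, the SE of a difference was 0.11 for Neurod6 and 0.43 for Calb2. Across the 14 arrays, Calb2 followed Pcp4 (r = 0.70) and ran against Wfs1 (r = -0.56), and Neurod6 followed Amigo2 (r = 0.76) and Wfs1 (r = 0.58). TBI+Zoloft replicate 1 was the highest array for Calb2 (-0.62) and the lowest for Wfs1 (-1.68). The value of -0.56 leans on that array, and no r without it is given here. Calb1 correlated with the other 5 genes at between -0.29 and 0.17. These are descriptions over 14 arrays of 5 groups that share scaling.

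**Figure D4:**
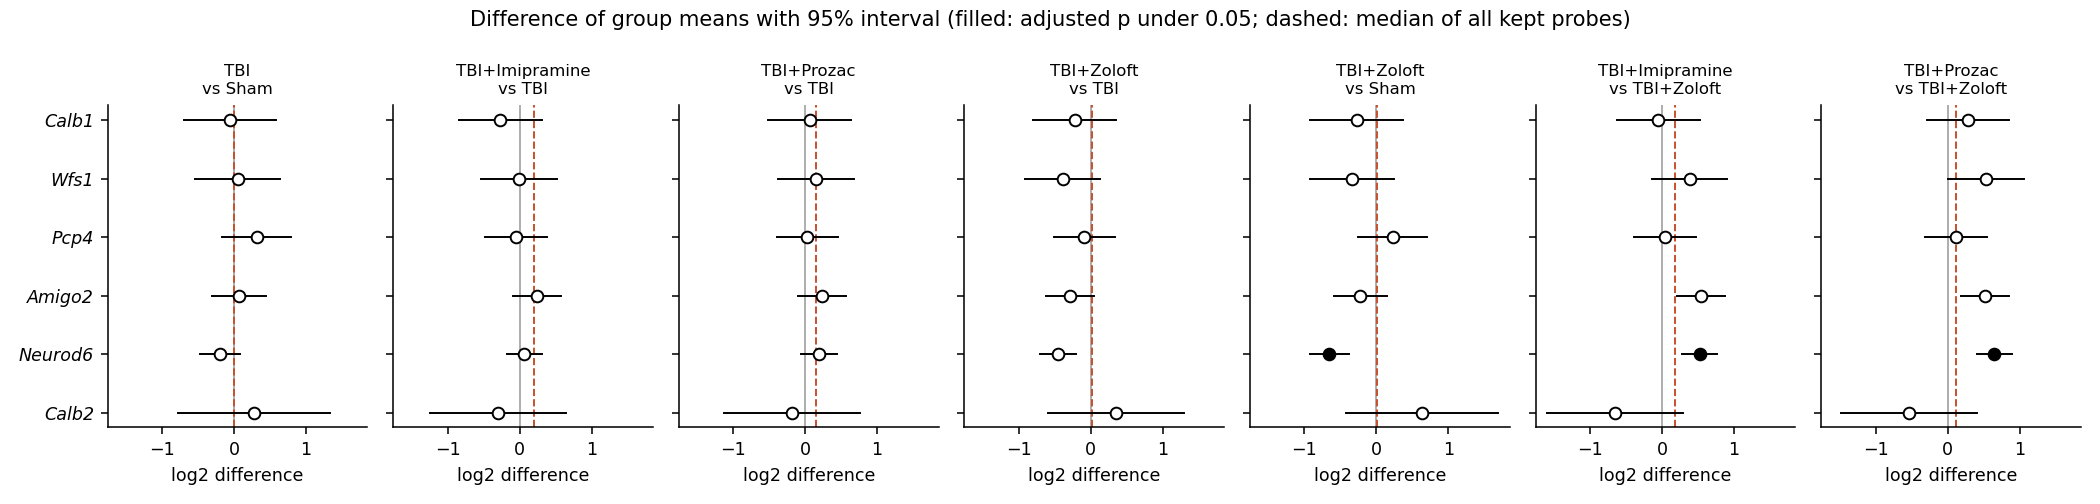
Log2 difference of group means (x axis) for the 6 measured members (y axis) in 7 comparisons, with 95% intervals; filled points passed an adjusted p of 0.05 and the dashed line is the median of all kept probes. Neurod6 is filled in the comparisons of TBI+Zoloft with Sham, TBI+Imipramine and TBI+Prozac, and the Calb2 intervals are the widest drawn.

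In the comparisons not yet given, 0 of 6 members passed the threshold, and 0 had an unadjusted p under 0.05: TBI+Imipramine against Sham, where 23.4% of all kept probes were called, TBI+Prozac against Sham, where 14.9% were, and TBI+Imipramine against TBI+Prozac, where 0.00577% were. In that order, 6333, 5174 and 1197 of all kept probes had an unadjusted p under 0.05 in limma. The members' differences there ran from -0.33 to 0.35. A p that misses the threshold does not show equal levels: for Neurod6 the 95% interval of TBI+Imipramine minus TBI+Prozac was -0.37 to 0.12, and for Calb2 it was -1.06 to 0.83.

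Further marker lists of the same cells were read beside the members. In TBI against Sham, 5 of the 39 kept genes of 8 neuronal lists were called (12.8%, Calb2 being counted in one of them), beside 16.6% of all kept probes, so the calls named next were no more frequent than among all probes. In TBI against Sham, the 5 kept genes reported of the CA1 list all had negative differences (median -0.49) and 1 was called: Pou3f1, a POU-domain factor, fell by 0.66 ± 0.21 (adjusted p = 0.047). Of 7 kept dentate genes, 1 was called: C1ql3, a secreted synaptic protein, fell by 1.31 ± 0.32 (adjusted p = 0.016). None of the 3 CA2, 3 CA3, 4 mossy cell and 3 immature neuron genes kept was called, with medians of -0.06, -0.45, -0.35 and 0.28 beside 0.0015 for all kept probes. Of 7 interneuron genes, 2 were called: Sst, the somatostatin gene, fell by 1.47 ± 0.32 and Lhx6, the LIM-homeobox factor of interneurons from the medial ganglionic eminence, fell by 0.70 ± 0.18 (adjusted p = 0.0085 and 0.020). Of 7 pan-neuronal genes, Syt1, the synaptic calcium sensor, fell by 0.67 ± 0.19 (adjusted p = 0.029). Differences were negative for 4 of 7 dentate, 6 of 7 interneuron and 5 of 7 pan-neuronal genes. The medians of these lists were -0.22, -0.21 and -0.18. The Syt1 probe was dim, and its value in TBI replicate 1, -5.91, lay under the lowest signal well above background on that array, -5.69. A dimmer probe of Sema5a, of the dentate list, and one of Stmn2, of the pan-neuronal list, fell where the brighter probe of the gene was not called. The calls depended on the setting, counting the reported one and fits with 1 Sham array left. Of 26 settings the call was lost in 13 for Pou3f1, 5 for Lhx6, and 2 each for C1ql3 and Sst. For Syt1 it was lost in 7 of 25. Against Sham, 5 of the 39 neuronal genes were called in TBI+Imipramine (12.8%, beside 23.4% of all kept probes). They were C1ql2, C1ql3 and Pdyn of the dentate list (-1.16, -1.04 and -0.96), and Sst and Lhx6 (-0.94 and -0.81). The dentate list there had 4 of 7 genes negative. TBI+Zoloft had 1 of 39 called (2.56%, beside 5.95%), C1ql3 at -1.22, and TBI+Prozac had 0 (beside 14.9%).

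**Figure D5:**
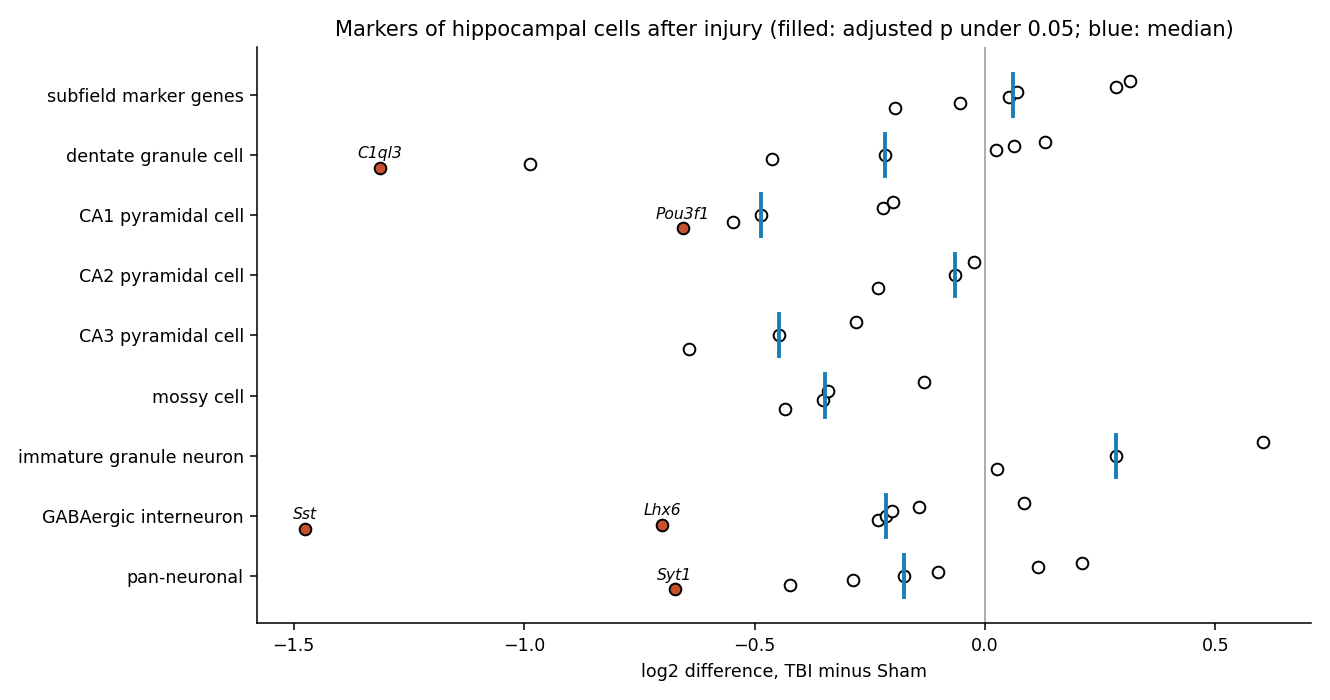
Log2 difference between TBI and Sham (x axis) for the kept genes of each marker list (y axis), with 1 point per gene, filled where adjusted p was under 0.05, and a blue line at the median of the list. The 6 members lie between -0.20 and 0.31 with none filled, and Sst lies farthest left at -1.47.

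In TBI+Prozac against TBI+Zoloft, the comparison with the largest Neurod6 difference among the drugs, 3 of the 39 neuronal genes were called (7.69%, beside 3.69% of all kept probes). No gene of the dentate list and 1 of 5 genes of the CA1 list were called, Ndst4, a heparan sulphate sulphotransferase gene, at 1.43 ± 0.33 (adjusted p = 0.041). Ndst4 read -6.03, -5.90 and -7.01 in TBI+Zoloft, near the floor. The last value lay under the lowest signal well above background on its array, -6.51, so the size of this difference is uncertain. Necab2, a calcium-binding protein gene of CA2, was 0.70 ± 0.15 higher in TBI+Prozac (adjusted p = 0.035) and Neurod1, a factor of immature granule neurons, was 1.03 ± 0.25 higher (adjusted p = 0.046). No CA3 or mossy cell gene was called by its brighter probe. The medians of the dentate, CA1, CA2 and CA3 lists were 0.42, 0.39, 0.70 and 0.29, and those of the immature neuron and pan-neuronal lists 0.44 and 0.33, beside 0.11 for all kept probes. The mossy cell and interneuron lists had medians of -0.02 and -0.06, with 2 of 4 and 4 of 7 genes negative. In TBI+Imipramine against TBI+Zoloft, 1 of the 39 genes was called by its brighter probe (2.56%, beside 5.29% of all kept probes): Pdyn, the prodynorphin gene of granule cells, stood at -0.85 in TBI+Imipramine minus TBI+Zoloft (adjusted p = 0.047). The dentate list there had 2 of 7 genes negative and a median of 0.32, beside 0.18 for all kept probes. Dimmer probes of Mpped1 (CA1 list) and Bok (CA3 list) were 0.99 and 0.50 higher in TBI+Prozac than in TBI+Zoloft (adjusted p = 0.017 and 0.044), as was a dimmer probe of Snap25 of the pan-neuronal list by 0.64 (adjusted p = 0.035). The dimmer Mpped1 probe was also 0.70 higher in TBI+Imipramine than in TBI+Zoloft (adjusted p = 0.037), where the brighter probe differed by 0.05. Pdyn also fell by 1.02 ± 0.22 in TBI+Imipramine against TBI (adjusted p = 0.033). It was the 1 gene of 39 called by its brighter probe there (2.56%, beside 2.85% of all kept probes). The dentate list in that comparison had 3 of 7 genes negative and a median of 0.15, beside 0.20 for all kept probes.

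Markers of neighbouring tissue and of glia were listed too. In TBI against Sham, of the 3 kept thalamus genes Prkcd and Lef1 rose by 1.21 and 0.96 (adjusted p = 0.049 and 0.043). The remaining kept gene, Cdh6, differed by -0.14 and was not called. Lef1 was dim, reading -6.27 in Sham replicate 1, near the lowest signal well above background on that array, -6.30. Of 3 neocortex genes none was called, and of 3 choroid plexus genes none was called. Across settings counted as above, the Prkcd call was lost in 19 of 26 and the Lef1 call in 14 of 25. The differences ran from 0.79 to 1.57 for Prkcd and from 0.16 to 1.26 for Lef1. Of the 23 kept genes of the glial and endothelial lists 4 were called (17.4%, beside 16.6% of all kept probes). Of the astrocyte list Gfap rose by 1.88 (1 of 6), of the microglia list Itgam by 1.05 (1 of 6) and of the endothelium list Cldn5 by 0.63 (1 of 5), and of the oligodendrocyte list Mobp fell by 1.33 (1 of 6). Differences were negative for 4 of 6 astrocyte, 2 of 6 microglia, 2 of 5 endothelium and 5 of 6 oligodendrocyte genes. The medians of these lists were -0.15, 0.42, 0.60 and -0.28, beside 0.0015 for all kept probes. Dimmer probes of Aqp4 and Slc1a3 of the astrocyte list rose by 1.19 and 0.81, where the brighter probes were not called, and a dimmer probe of Mobp was not called. Of 26 settings counted in the same way, the call was lost in 3 for Gfap, 5 for Cldn5, and 7 each for Itgam and Mobp. Against Sham, TBI+Imipramine had 6 of the 23 called (26.1%, beside 23.4% of all kept probes): Gfap, Aif1, Itgam, Cx3cr1, Csf1r and Cldn5. TBI+Prozac had 4 (17.4%, beside 14.9%): Aif1, Itgam, Csf1r and Cldn5. TBI+Zoloft had 2 (8.7%, beside 5.95%): Itgam and Pecam1. All were higher than in Sham. A dimmer Csf1r probe was not called in these comparisons. The thalamus gene Lef1 was also called higher in TBI+Imipramine and TBI+Prozac, and Prkcd in TBI+Imipramine. The mean log2 level of the 3 thalamus genes was -4.33 and -4.12 in Sham and ran from -4.06 to -2.91 in TBI, where TBI replicate 3 was highest; the same array had the highest Pcp4 value of the 14 and the highest Calb2 value of TBI. In TBI+Zoloft the thalamus level ran from -3.92 to -3.63 and the neocortex level from -2.80 to -1.97, inside the range of the other 11 arrays for the thalamus genes and up to the highest array of the 14 for the neocortex genes. The part of other tissue in the members' values was not tested.

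Glial and choroid plexus markers were read in the comparisons in which Neurod6 was called between drugs. In TBI+Prozac against TBI+Zoloft all 6 microglia genes (median 0.61) and all 6 oligodendrocyte genes (median 0.26) had positive differences, while the astrocyte and endothelium lists had medians of 0.04 and -0.17 and all 3 choroid plexus genes were negative (median -2.27). Csf1r, the receptor gene on which microglia depend, was called, at 0.84 ± 0.19 in TBI+Prozac and 0.79 ± 0.19 in TBI+Imipramine against TBI+Zoloft (adjusted p = 0.038 in each). It was the 1 gene called among the 23 glial and endothelial genes in either comparison (4.35%, beside 3.69% and 5.29% of all kept probes), and a second, dimmer Csf1r probe was not called (adjusted p = 0.12 and 0.068). A dimmer probe of Slc1a3 was 0.72 higher in TBI+Prozac than in TBI+Zoloft (adjusted p = 0.046), where the brighter one stood at -0.20. In TBI+Imipramine against TBI+Zoloft all 6 microglia and all 6 oligodendrocyte genes were again positive (medians 0.48 and 0.27), both comparisons resting on the same TBI+Zoloft arrays. The mean log2 level of the 6 microglia genes ran from -2.39 to -1.69 in TBI+Zoloft, from -2.15 to -1.91 in Sham, from -1.81 to -1.65 in TBI, from -1.65 to -1.44 in TBI+Imipramine and from -1.59 to -1.18 in TBI+Prozac. TBI+Zoloft thus overlapped Sham and TBI and lay below the other drug groups. The part of these cells in the Neurod6 values was not tested.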

How the data were processed

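The deposited scanner files hold spot intensity on a linear scale, read by the authors with Agilent Feature Extraction 11.5.1.1 (per the file headers), which corrected background and set flags of another kind (0 or 1) for spots above background, outlying or saturated. The deposited series table holds the authors' scaled intensity of the same arrays. The 14 miRNA arrays were not used here. Outlier spots were left out, the processed signals of a probe averaged, and each array was scaled to the 75th percentile over detected probes (over 0.5 of spots above background) before log2. Probes above background on all arrays of at least 1 group were kept (17322 of 30367). Groups came from the sample titles.

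Accessions were named through the RefSeq table of GRCr8 (18635 probes, 11897 kept). The array is an older design and no array coordinates were used. A gene with several kept probes was represented by the brightest. Two-sided tests used limma 3.58.1 (lmFit, eBayes) under R 4.3.3, with a common fit for all 14 arrays and Benjamini-Hochberg adjustment over all kept probes at 0.05; the code was tested on simulated data. Tables were built with Python 3.11.15 and pandas 2.3.3. P-values measure the spread between arrays, each labelled as a rat, and precision is limited by 2 or 3 arrays per group. A gene of the CA1 list is not reported here. Members, marker lists and tests were chosen with earlier results of these data known. All 9 members were to be named, with the called genes of each list (at most 4 per list and comparison) and the 2 genes most like a called member.

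Alternatives were other scalings (percentile over all probes, quantile), normexp with pixel medians, since the files hold no mean signal, the deposited table, other probe filters, outlier spots kept, slide terms, a replicate block, 2 groups alone, the methods' t-test and leaving out each array. Replicate numbers did not pair the arrays: same-numbered arrays of different groups correlated at -0.01 on average after group means were removed, and 2 of 26 such pairs exceeded 0.1. Columns of other samples numbered 0.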

Additional observations from a re-analysis of the deposited data

Results flagged for a closer look

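Neurod6 was marked because the drugs' differences from TBI differed from each other by a test of that difference. The difference from TBI was 0.52 larger in log2 units under imipramine than under Zoloft (adjusted p = 0.028, higher in 3 of 3 TBI+Imipramine arrays than in any TBI+Zoloft array) and 0.65 larger under Prozac than under Zoloft (adjusted p = 0.018, likewise 3 of 3). Both values share the 3 TBI+Zoloft arrays. TBI cancels in each, so they are the contrasts between drugs already given and no further test. The share of all kept probes that separate in this way is not given here. Single outlying arrays were not tested in groups of 2 or 3, the Calb2 value of TBI+Zoloft replicate 1 included.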

How the results depend on the processing

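Counts are of the 6 measured members called. In TBI+Zoloft against TBI the count rose from 0 to 1 with the percentile over all probes, the deposited table, slide as a random block and the methods' t-test at its unadjusted threshold. In TBI+Zoloft against Sham it fell from 1 to 0 with the 2 groups alone and the methods' t-test after Benjamini-Hochberg, and ranged from 0 to 1 leaving out an array. In TBI+Imipramine against TBI+Zoloft it fell from 1 to 0 with the percentile over all probes, quantile, normexp, the deposited table, no filter, slide as a fixed term, the second slide alone, the replicate block, the 2 groups alone and the methods' t-test after Benjamini-Hochberg; it was 2 with probes above background on all arrays and in the methods' t-test at its unadjusted threshold, and 0 to 2 leaving out an array. In TBI+Prozac against TBI+Zoloft it fell to 0 with the percentile over all probes, the deposited table, no filter, slide as a fixed term, the second slide alone, the 2 groups alone and the methods' t-test after Benjamini-Hochberg, was 2 in the unadjusted t-test, and 0 to 1 leaving out an array. In TBI+Imipramine against TBI+Prozac the unadjusted t-test gave 1. The share of all kept probes past the t-test's unadjusted threshold is not given here, so its counts are not read as results about the members. The other counts were the same. Neurod6 under the replicate block was -0.61 in TBI+Zoloft against Sham and 0.52 in TBI+Imipramine against TBI+Zoloft (adjusted p = 0.052), and the block changed no other member count.

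Of 1813 alternative values of the members' differences (7 probes in 10 comparisons), 106 turned sign, in 34 of 70 differences and none called either way (lowest adjusted p = 0.50). Of these, 95 moved by less than the SD within groups, 48 of them on leaving out an array, such as Calb1 in TBI against Sham (-0.05 as reported, -0.32 to 0.21 leaving out an array) and Calb2 in TBI+Zoloft against TBI. The other 11, which moved by at least that SD, were Calb2 in TBI+Imipramine against TBI (0.53 with slide as a fixed term); Neurod6 in that comparison (-0.16 with the percentile over all probes, -0.091 with quantile, -0.16 with the deposited table) and in TBI+Prozac against Sham (0.11, normexp); Amigo2 in TBI against Sham (-0.12 without Sham replicate 1, the range leaving out an array being -0.12 to 0.26), TBI+Imipramine against TBI (-0.042, quantile) and TBI+Imipramine against Sham (-0.0025, quantile); and the dimmer Amigo2 probe in TBI+Imipramine against Sham (-0.21 with quantile, -0.17 with normexp) and TBI+Prozac against Sham (-0.18, normexp). Over all kept probes, TBI+Imipramine against TBI+Zoloft gave 917 calls as reported and 78, 137, 143 and 79 with the percentile over all probes, quantile, normexp and the deposited table. In the same order TBI+Prozac against TBI+Zoloft gave 639 and 331, 345, 109 and 288, TBI+Zoloft against TBI 239 and 824, 803, 237 and 805, TBI+Imipramine against TBI 494 and 58, 50, 363 and 56, TBI+Zoloft against Sham 1031 and 2118, 2178, 683 and 2074, and TBI against Sham 2879 and 4446, 4467, 2887 and 4392, so the shares of all probes called move with the scaling; the cause was not tested. Dim probes limit Prox1 and Tdo2, which have no measured level here.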
